A study of Homo sapiens with 7 samples.

Results

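The first 6 h of recovery after heating at 44 °C were described by 2 of the 7 arrays of the study, that of cells collected at the end of the heating (0 h) and that of cells collected after 6 h. The pair was chosen from the labels for temperature and time and by no measured value. The cells were HSC-3, a widely used cancer line that began as a squamous tumour of the human mouth, and the study profiled its genes during heat-induced death. Cultures were heated for 90 min at 42 or 44 °C and then kept at 37 °C for 0, 6 or 12 h, beside an unheated culture at 37 °C whose array entered the floor defined below, the choice of 1 probe set per gene and the normalization over all 7 arrays. RNA of each condition went onto 1 Affymetrix whole-genome expression array, so no difference below can be set against replicates. Having a single array a condition limits the precision, and no test was made. Other lines and tissue were not measured.

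Heated cells accumulate unfolded protein, which frees heat shock factor 1 (HSF1) to bind heat shock elements in front of chaperone genes. The chaperones HSP70, HSP90, HSP40 and the small heat shock proteins refold or hold damaged protein, and they also bind HSF1 again, which ends the response once damage is cleared. Immediate early genes such as FOS, EGR1 and ATF3 encode transcription factors that answer many stresses within minutes and whose mRNA is normally short-lived.

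Values are the deposited probe set intensities on a linear scale. Intensities below 21.4, the pooled median of all 7 arrays, were set to that floor before log2 was taken. The 0 h array was brighter throughout, with a median intensity of 32.1 against 19.3 at 6 h, and 58.3% against 47.9% of probe sets reached the floor. Its poly-A control transcripts, added before labelling, were 1.58-fold brighter than at 6 h, while the hybridisation controls, added after it, differed by 0.20 log2 units in the other direction. The ratio of 3' to 5' signal was 1.29 at 0 h and 1.19 at 6 h for ACTB and 0.875 and 0.921 for GAPDH. The median of the 13880 genes measured on either array was -0.46 log2 units (6 h minus 0 h) as deposited and -0.01 after quantile normalization of the 2 arrays. For this reason the words rose and fell are kept for genes at least 2-fold apart (1 log2 unit) under each of 3 scalings, namely the deposited values, quantile normalization and a shift to a common median. Relative to the median of all genes, the rule asks for a larger change of genes that rose than of genes that fell, so the balance of the 2 counts below follows the level of the arrays. Of 9 epithelial markers, the 5 with a value (KRT5, KRT14, EPCAM, CDH1 and ITGA6) were above the floor on both arrays, with summed intensities of 35670 at 0 h and 31174 at 6 h. Fibroblast markers summed to 478 and 427 (5 and 4 of 8 above the floor), leukocyte markers to 114 and 107 (2 of 6 on each) and endothelial markers to 92.6 and 58.9 (1 of 6 on each).

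**Figure D1:**
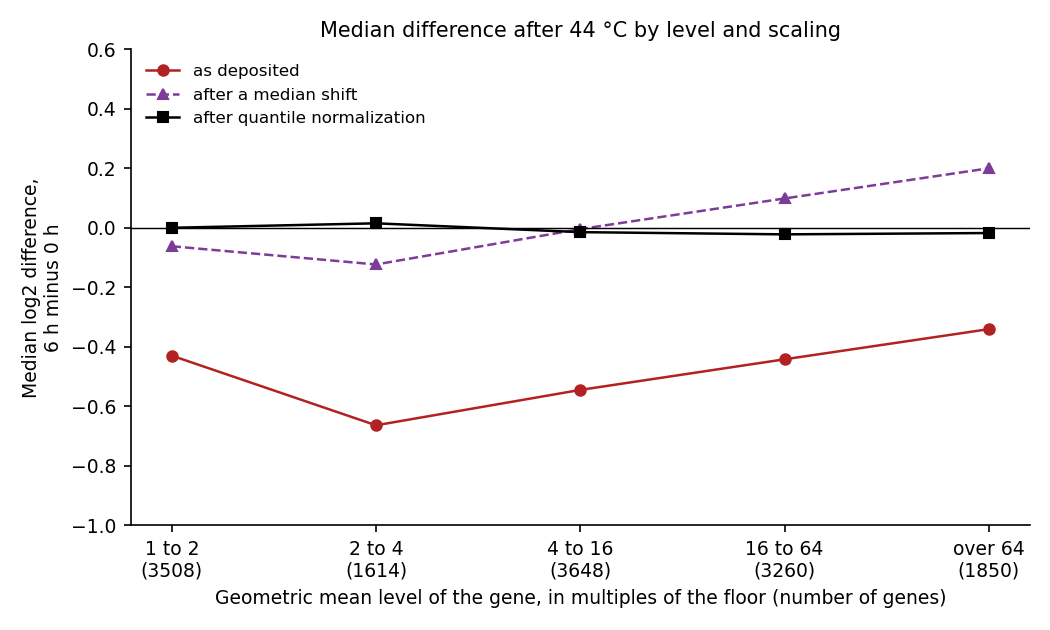
Median log2 difference between 6 h and 0 h after 44 °C (vertical axis) of genes grouped by their geometric mean level in multiples of the floor (horizontal axis, number of genes in brackets), under the 3 scalings, with 1 array a side. As deposited every level group lies below 0, from -0.66 at 2 to 4 times the floor to -0.34 above 64 times, whereas after quantile normalization all lie near 0.

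Under that rule 38 of the 13880 measured genes rose between 0 and 6 h (0.274%) and 206 fell (1.48%). The deposited scale alone gave 38 higher and 1378 lower genes, quantile normalization alone 237 and 213. Most of the genes that changed were dim: 17 of the 38 risen and 128 of the 206 fallen genes were below the floor on the other array. Among genes that reached 4 times the floor (85.4) on either array, called bright here, 13 rose and 93 fell. Of the 8255 genes that reached 4 times the floor on both arrays, 7927 (96%) stayed within 2-fold under all 3 scalings and are called held. Cells were measured in bulk and the same mass of RNA was labelled for each array, so fewer cells and less RNA per cell cannot be told apart. Where a gene had several probe sets, their quantile-normalized differences had a standard deviation of 0.26 log2 units for bright and 0.50 for dim probe sets. This is the disagreement of probe sets on the same 2 arrays. It holds no variation between cultures, RNA samples or arrays, so it does not measure the error of a difference between 0 and 6 h.

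**Figure D2:**
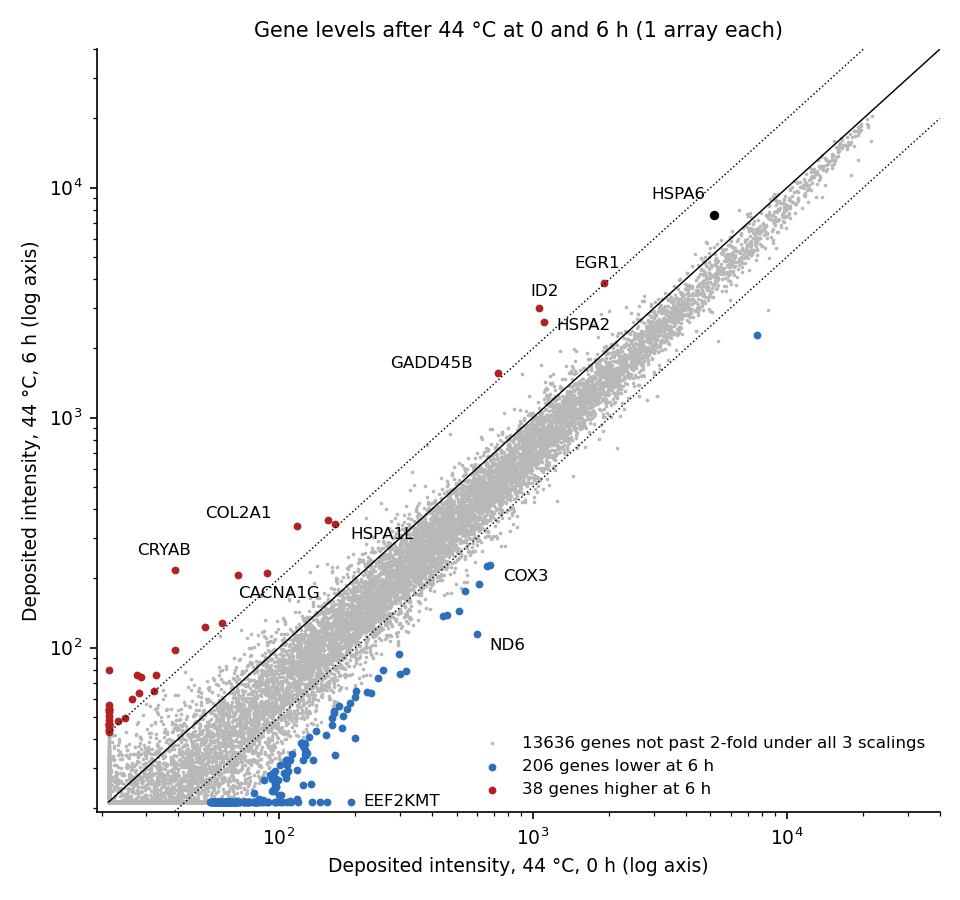
Deposited intensity of 13880 genes on the 44 °C array at 0 h (horizontal axis) and at 6 h (vertical axis), both on log axes, with values below the floor drawn at the floor. The solid line marks equal levels and the dotted lines 2-fold differences. The cloud lies below the line of equal levels, the 38 genes higher at 6 h (red) include ID2, HSPA2 and EGR1 at high levels, and most of the 206 lower genes (blue) lie at low intensities. HSPA6 (black) is above the line of equal levels but within 2-fold.

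Most heat shock genes were held between 0 and 6 h after 44 °C, as were most genes of any kind. Over the lists of HSP70 and HSP110 chaperones, HSP40 cochaperones, HSP90 with its cochaperones, and small heat shock proteins with BAG cochaperones, 45 genes were measured. None of them fell and 3 rose by the rule (HSPA2, CRYAB and, on 1 of its 2 probe sets, HSPA1L). Of all measured genes 1.48% fell and 0.274% rose. Of the 39 that were bright on both arrays, 36 were held (92.3%, against 96% of all such genes). The median difference of the 45 was -0.27 as deposited and 0.15 after quantile normalization, which is 0.20 and 0.16 above the median of all genes. Promoter sequences of 4 genes picked for their matches are printed first. Heat shock elements were more common in front of genes of the heat shock lists than of measured genes at large. EGR1 is not on these lists, has no such element and is shown for its CArG boxes. Of other heat shock genes named below, DNAJB4, HSPB1 and HSPB8 also held the element. HSPA2, HSPH1 and BAG3 held none, and CRYAB had no window. They are from RefSeq, build GRCh38.p14, 5' to 3' on the strand of the gene, and end before the start of transcription. Capitals mark the heat shock element (GAANNTTC or TTCNNGAA, each of which reads the same on both strands) or, in EGR1, the CArG box that serum response factor binds (CC, 6 bases of A or T, GG).
HSPA6, chr1:161524340-161524498, plus strand: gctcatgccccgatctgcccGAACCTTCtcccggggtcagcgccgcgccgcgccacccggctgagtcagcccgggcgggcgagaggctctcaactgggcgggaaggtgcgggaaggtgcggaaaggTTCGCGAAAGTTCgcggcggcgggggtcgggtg
DNAJB1, chr19:14518417-14518494, minus strand: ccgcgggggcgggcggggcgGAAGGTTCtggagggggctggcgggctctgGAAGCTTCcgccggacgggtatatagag
HSPA1L, chr6:31815417-31815464, minus strand: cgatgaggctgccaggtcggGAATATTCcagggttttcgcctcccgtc
EGR1, chr5:138465354-138465425, plus strand: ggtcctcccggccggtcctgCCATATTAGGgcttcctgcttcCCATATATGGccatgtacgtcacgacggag

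HSPA6 holds 3 matches, the last pair overlapping, in a window of 300 bases around its start, and the DNAJB1 start shown holds 2. Of the 45 measured genes of the heat shock lists, 39 had a promoter window in the table, and 15 of these (38.5%) held a match, against 14.2% of the 11147 measured genes with a window. The risen genes held it in 2 of 26 cases and the fallen genes in 16 of 129 (12.4%). The CArG box was found in 1.55% of measured genes with a window, and EGR1 has 2. A match is a description of the letters in the window and not a measured binding site.

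HSPA6, a strictly inducible HSP70 that is nearly silent in unstressed cells, had an intensity of 5143 at 0 h, 7596 at 6 h and 8788 at 12 h. The levels at 12 h are given here and below as values, and they do not enter the comparison. HSPA6 was thus 1.48-fold above its 0 h level at 6 h as deposited and 1.78-fold after quantile normalization, short of 2-fold. Of the 3 scalings only the median shift put it past 2-fold (1.10 log2 units). Its other probe set moved the same way, from 2301 to 4038.

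DNAJB1, the HSP40 partner that delivers clients to HSP70, stood at 7110, 7004 and 6989 at 0, 6 and 12 h, a flat course. DNAJB4, a related cochaperone, had 810, 542 and 530, lower at both later times but 1.11-fold lower at 6 h after quantile normalization. BAG3, which links HSP70 to autophagy, was at 4602, 4378 and 5148. HSPH1, an HSP110 exchange factor of HSP70, was at 6951 and 7706 at 0 and 6 h and at 9202 at 12 h. HSP90AA1, the inducible HSP90, differed by 0.01 log2 units as deposited (16311 and 16446), and its 3 other probe sets by -0.04, -0.03 and 0.01.

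Within single lists the picture was the same, where 96% of all genes bright on both arrays were held. All 12 measured mitochondrial chaperones and proteases were held on the probe sets used, among them HSPD1 (15189 at 0 h and 13190 at 6 h), the mitochondrial HSP60. Of the 4 other HSPD1 probe sets, 3 were lower at 6 h as deposited. Among these 3 was a probe set that went from 1052 to 271, -1.95 as deposited and -1.52 after quantile normalization. The brightest of the 4 went from 8557 to 9027. HSPA5, the HSP70 of the endoplasmic reticulum, read 10282 and 9788. All 12 measured subunits of the TRiC chaperonin and prefoldin were held, and so were 13 of 14 genes of the HSP90 list. The remaining member, AHSA2P, a pseudogene related to an HSP90 activator, went from 169 to 55.4, which was -1.61 as deposited and -0.99 after quantile normalization. The 6 measured heat shock transcription factors and regulators were also held, HSF1 itself at 413 and 302 and IER5, a feedback activator of HSF1, at 4345 and 5128.

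CRYAB had the largest rise of all bright genes. CRYAB (αB-crystallin) is a small heat shock protein that holds unfolded proteins in solution. Its intensity was 38.8 at 0 h, 218 at 6 h and 325 at 12 h, a rise of 5.62-fold as deposited and 8.45-fold after quantile normalization by 6 h. It has a single usable probe set and its 0 h value lay close to the floor. The small heat shock proteins HSPB1 (2664 and 2052) and HSPB8 (117 and 118) did not follow it, although HSPB8 read 314 at 12 h. The other HSPB8 probe set went from 114 to 38.2, -1.57 as deposited and -0.90 after quantile normalization, so the probe sets of HSPB8 disagree.

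HSPA2, an HSP70 known best from germ cells, rose 2.36-fold from 1104 to 2605 (3.02-fold after quantile normalization) and was at 2407 at 12 h. HSPA1L, a gene next to the inducible HSP70 genes HSPA1A and HSPA1B, gave values that depend on the probe set. The probe set used here rose from 167 to 345 and read 662 at 12 h, but its other probe set fell from 769 to 189, a difference of -2.02. With the mean of both, HSPA1L came to -0.49, so no direction is given for the gene. HSPA8 and the main inducible pair had no probe set listed for a single gene, and their levels are not reported. For the whole HSP70 and HSP110 list the median of 8 members lay 0.55 above that of all genes as deposited and 0.40 after quantile normalization.

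**Figure D3:**
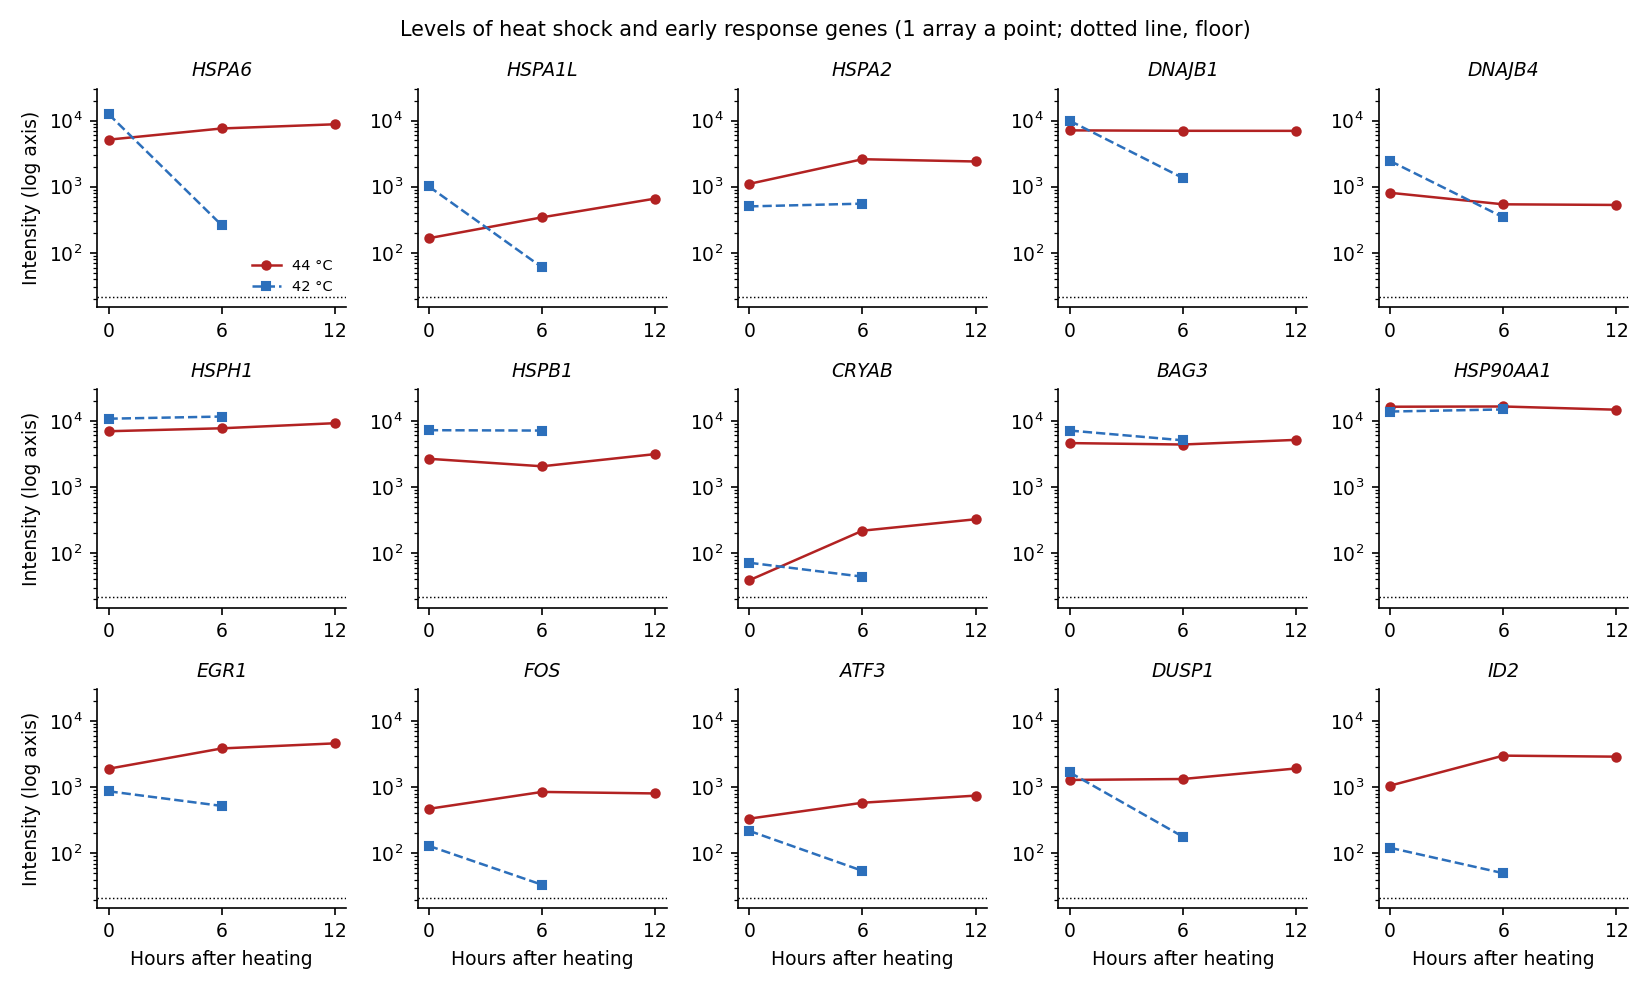
Deposited intensity (log axis, 1 array a point) of 15 heat shock and early response genes by hours after heating, for 44 °C at 0, 6 and 12 h (red circles) and 42 °C at 0 and 6 h (blue squares), with the floor as a dotted line. After 44 °C the lines of DNAJB1, BAG3 and HSP90AA1 run nearly flat, that of HSPA6 climbs from 5143 to 8788, and those of CRYAB, HSPA2, EGR1 and ID2 go up. After 42 °C those of HSPA6, HSPA1L, DNAJB1, DNAJB4 and DUSP1 drop by 6 h.

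Among the immediate early genes, 3 rose in the 6 h after 44 °C and none fell. Over 5 lists (AP-1 subunits, early growth response and KLF factors, dual-specificity phosphatases and other feedback regulators of kinases, ID proteins with TGF-beta targets, and GADD45 with PLK genes) 70 genes were measured. EGR1, ID2 and GADD45B were the 3 that rose, and 40 of the 48 bright on both arrays were held (83.3%, against 96% of all such genes). The 3 risen genes are 4.29% of the 70, and of all measured genes 0.274% rose and 1.48% fell. With the scale set by the hybridisation controls EGR1 (0.82) and GADD45B (0.91) did not reach 1 log2 unit, and ID2 (1.30) did.

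EGR1, a zinc finger factor switched on by serum and stress through CArG boxes like those printed above, read 1898, 3849 and 4594 at 0, 6 and 12 h. It rose 2.03-fold as deposited, only just past the threshold, and 2.58-fold after quantile normalization. Its dimmer probe sets moved less, from 561 to 627 and from 172 to 114. The second of these went the other way, so the rise of EGR1 rests on its brightest probe set.

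ID2, which blocks DNA binding by basic helix-loop-helix factors, rose 2.84-fold from 1054 to 2996 and read 2892 at 12 h. Its second probe set rose from 163 to 682. No other ID gene rose or fell: ID1 went from 596 to 426, a difference of -0.06 after quantile normalization. GADD45B, a small stress protein that activates p38 and JNK kinase signalling, rose 2.16-fold, from 728 to 1571, and read 2339 at 12 h. All 3 of its other probe sets were also higher at 6 h, the brightest going from 333 to 919. Its relatives did not pass 2-fold under any scaling: GADD45A, a p53 target, read 3483 and 2840, and GADD45G 105 and 126.

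FOS and its partners came near the threshold. FOS read 471, 848 and 804 at 0, 6 and 12 h, which is 1.80-fold higher at 6 h as deposited and 2.40-fold after quantile normalization. FOSB (141 and 226), ATF3 (334 and 582) and the small GTPase RASD1 (384 and 759) also passed 2-fold after quantile normalization and the median shift but not as deposited. For ATF3 the other probe sets disagreed, one higher (69.9 and 122) and one lower (72.4 and 37.6). JUN, which pairs with FOS in AP-1, was held at 1941 and 2047, MYC at 2016 and 1746, and DUSP1, a phosphatase that turns off MAP kinases, at 1285 and 1329. FOSL1 and IER3 were held too, but on the lower side, at 3316 and 1994 and at 5999 and 3816.

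The other bright genes that rose share no list. COL2A1, the collagen of cartilage, rose 2.87-fold from 117 to 337 and read 836 at 12 h, and its second probe set rose from 39.4 to 184. CACNA1G, a T-type calcium channel, rose 3.0-fold from 68.8 to 206 and was at 143 at 12 h. TENT5C, which lengthens poly(A) tails, rose 2.29-fold from 156 to 358 and was back at 157 at 12 h. The remaining ones were ARC (51.0 and 123), LPAR6 (59.6 and 128), GNAO1 (39.1 and 97.8) and ZNF595 (89.5 and 210). The single other probe set of ZNF595 did not share its sign. GNAO1 was below the floor at 12 h. Compared with 0 h, 10 of the 13 bright risen genes were still more than 2-fold higher at 12 h as deposited. SNAI1, a repressor of E-cadherin, read 132.5, 214 and 331, and MMP3, a matrix protease, 85.2, 168 and 422, both past 2-fold at 6 h after quantile normalization and the median shift but not as deposited.

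The genes that fell were mostly dim, and few of them share a list. Among the 20 with the largest falls, EEF2KMT, which methylates elongation factor 2, went from 192 at 0 h to below the floor at 6 h, at least 8.99-fold lower as deposited and 6.58-fold after quantile normalization. CDC42EP2, an effector of the GTPase CDC42, fell from 144 by at least 6.77-fold and 5.65-fold on these scales, and CASTOR2, a relative of an arginine sensor of mTORC1, from 135 by at least 6.30-fold and 5.18-fold. The zinc finger gene ZNF48 fell from 118 by at least 5.54-fold and 4.59-fold. All 4 were bright at 0 h and below the floor at 6 h. NACA4P, a pseudogene of a nascent-chain chaperone subunit (7640 and 2293), was the single fallen gene above 50 times the floor, and its signal cannot be told apart from that of its parent gene. Of the bright fallen genes, 42 had other probe sets above the floor, and in 36 of them all had the same sign as deposited. On that scale the median of all genes was itself -0.46, so a shared negative sign is no separate support for a fall. At 12 h 79 of the 93 were more than 2-fold below 0 h as deposited and 45 after quantile normalization over all arrays.

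Mitochondrially encoded transcripts had the lowest median of the 57 lists with at least 4 measured members after quantile normalization. ND6, the only protein gene on the light strand of mitochondrial DNA, fell 5.23-fold from 602 to 115 as deposited and 3.71-fold after quantile normalization, and read 111 at 12 h. COX3, a subunit of cytochrome oxidase, fell 2.95-fold from 678 to 230 as deposited and 2.14-fold after quantile normalization, and read 518 at 12 h. With the scale set by the poly-A controls COX3 came to -0.90, short of 2-fold. The other 5 measured members were held, though each was lower at 6 h: COX2 at 17926 and 11371, ATP6 at 13734 and 9140, and the others by -0.54 to -0.42. The list median was -0.12 from that of all genes as deposited and -0.39 after quantile normalization. Of the 7 measured members 2 thus fell (28.6%), where 1.48% of all measured genes fell. The 41 measured nuclear genes of oxidative phosphorylation were all bright on both arrays and all held, where 96% of all such genes were held. Their median was 0.00 relative to all genes after quantile normalization.

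SRRM2 and POLR1C were among the genes of RNA handling that fell, and SNAPC4, described further below, fell too (95.8 and 23.8). SRRM2, a scaffold of nuclear speckles, fell 3.28-fold from 457 to 139 as deposited and 2.31-fold after quantile normalization. Its 3 other probe sets were also lower as deposited, and differed by -1.03, -0.47 and 0 after quantile normalization. The speckle scaffold SON (1996 and 1029) and the nuclear RNA MALAT1 (2200 and 1013) were lower as deposited, at -0.96 and -1.12, and within 2-fold after quantile normalization at -0.58 and -0.74. MALAT1 read 1899 at 12 h. POLR1C, a subunit shared by RNA polymerases I and III, fell 3.15-fold from 296 to 94.1 as deposited and 2.15-fold after quantile normalization. RPPH1, the RNA of ribonuclease P, read 779 and 431, within 2-fold. None of the 28 splicing factors, SR proteins and CLK kinases rose or fell, where 0.274% of all measured genes rose and 1.48% fell.

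Zinc finger genes of the ZNF series made up 10 of the fallen and 3 of the risen genes among 339 measured, or 2.95% and 0.885% against 1.48% and 0.274% of all genes. They are dim as a class, with 118 of 339 bright on both arrays. Their median was -0.66 as deposited and -0.09 after quantile normalization. Of 35 ZBTB factors 2 fell (ZBTB45 and ZBTB6), and of 42 clustered histone genes 2 fell (H4C4 and H2BC15), all 4 at intensities of at most 222 at 0 h. NPAS2 was the single fallen circadian clock gene, from 81.2 to below the floor, and 1 of its 2 other probe sets had the opposite sign.

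Of the 59 lists examined, 44 had no member that rose or fell, where 0.274% of all genes rose and 1.48% fell. These include the 31 measured NF-kB genes, the 62 genes of the ATF4, unfolded protein and NRF2 responses, 79 cell cycle genes and 17 p53 targets. Of the 229 genes of ribosomes, translation and the proteasome, POLR1C alone fell and 222 were held. In the NF-kB lists TNF read 416 and 216 and IL1A 3126 and 1691, both lower by less than 2-fold, and CXCL8 read 4752 and 3149. FN1, fibronectin, and ZFP36, which speeds decay of cytokine mRNA, were lower as deposited by 2.16-fold and 2.32-fold and within 2-fold after quantile normalization. MCL1, an anti-apoptotic BCL2 protein, read 2693 and 2258, and DDIT3, the stress factor CHOP, 125 and 112. On the probe sets used, neither MCL1 nor DDIT3 passed 2-fold under any scaling. Of the 5 other MCL1 probe sets, 3 were lower at 6 h as deposited. The largest fall among them was from 197 to 66.1, -1.58 as deposited and -0.98 after quantile normalization.

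A list of at least 4 measured members is set apart here where its median lies at least 0.3 log2 units from that of all genes as deposited, and 7 lists did so, all on the higher side. These were HSP70 and HSP110 (0.55), stress-induced small GTPases (0.54), metallothioneins (0.44), GADD45 and PLK genes (0.38), epithelial markers (0.33), early growth response and KLF factors (0.32) and cytosolic ribosomal proteins (0.32). After quantile normalization only the first, the small GTPases (0.51) and the GADD45 genes (0.31) stayed at 0.3 or more. The cytosolic ribosomal proteins, whose intensities are high, came to 0.03, and the metallothioneins to 0.22. As deposited, the 1850 genes above 64 times the floor had a median of -0.34 against -0.46 for all genes, and the part of this in the list medians was not tested.

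**Figure D4:**
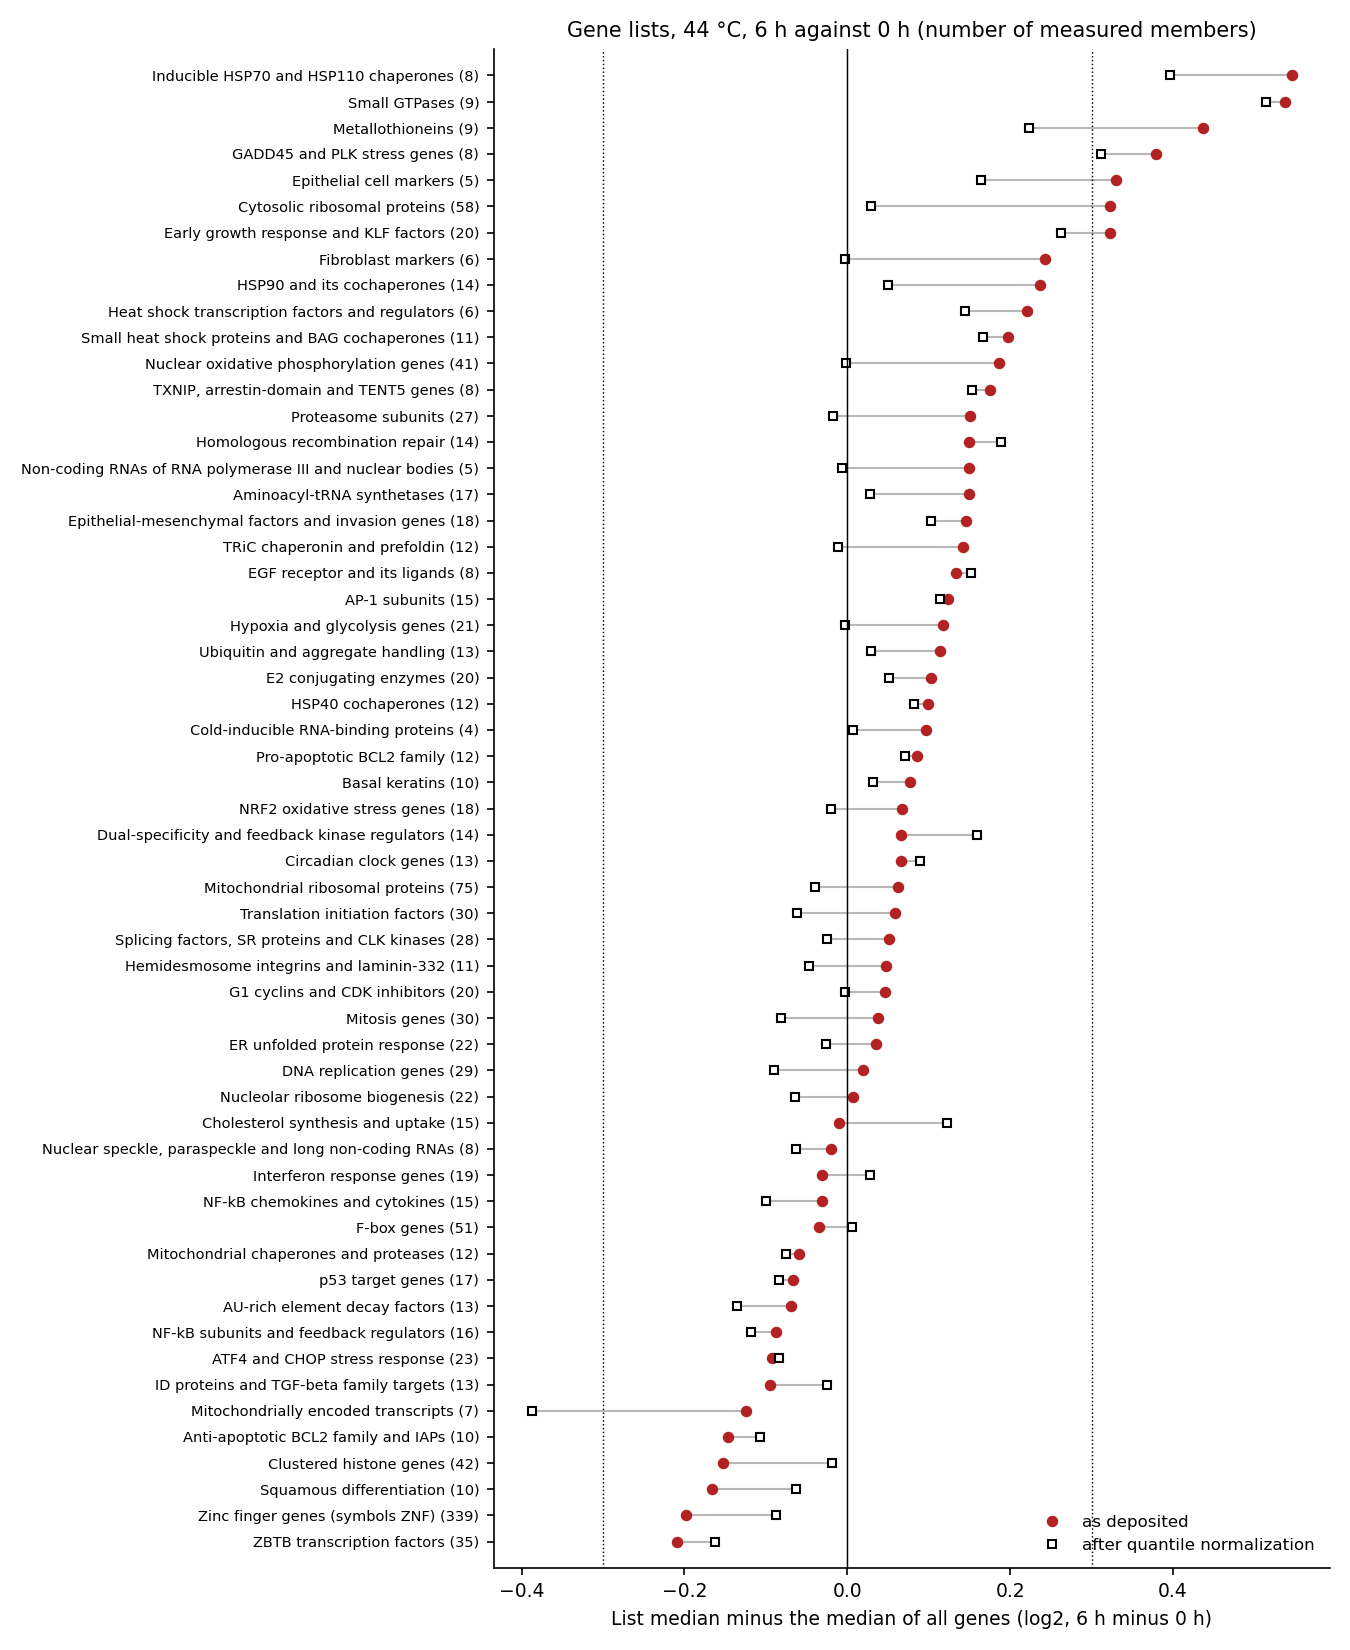
Median log2 difference (6 h minus 0 h after 44 °C) of 57 gene lists with at least 4 measured members, minus the median of all genes, as deposited (red circles) and after quantile normalization (open squares), with the number of measured members in brackets. Dotted lines mark 0.3 either way. The HSP70 list and the small GTPases lie highest on both scales, and the mitochondrially encoded transcripts lie lowest after quantile normalization.

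The same 6 h after 42 °C, measured on 2 other arrays, held larger differences than those after 44 °C. There 552 of 12627 measured genes rose (4.37%) and 157 fell (1.24%). Among 7759 genes bright on all 4 arrays, the standard deviation of the quantile-normalized difference was 0.29 log2 units after 44 °C and 0.50 after 42 °C, and 34 against 392 genes passed 2-fold. The all-gene median went the other way as well, 0.30 after 42 °C as deposited. With 1 array a condition none of the differences between temperatures was tested.

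HSPA6 fell 48.0-fold in the 6 h after 42 °C, from 12566 to 262, where after 44 °C it read 5143 and 7596. DNAJB1 fell 7.35-fold (9949 and 1354), DNAJB4 7.10-fold (2453 and 345) and DUSP1 9.38-fold (1673 and 178), and all 3 were held after 44 °C. At 0 h HSPA6, DNAJB1, DNAJB4 and DUSP1 were all lower after 44 °C than after 42 °C, and at 6 h all were higher.

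TENT5A (3362 and 217 after 42 °C, 1245 and 915 after 44 °C) and HERPUD1, an endoplasmic reticulum stress gene (2728 and 498, 679 and 896), showed the same order. RPPH1 read 412 and 29.0 after 42 °C and 779 and 431 after 44 °C. These are deposited levels, and the arrays differ in brightness. The median intensity at 0 h was 18.7 after 42 °C and 32.1 after 44 °C, and at 6 h 21.0 and 19.3. The higher RPPH1 level at 0 h after 44 °C can therefore not be told apart from the brighter array. Of 152 genes that fell after 42 °C and were measured in both, 6 fell after 44 °C (3.95%, against 1.48% of all genes). A further 4 rose after 44 °C, where 0.274% of all genes rose, and 115 stayed within 2-fold. The control probe set for the 5' end of 28S ribosomal RNA read 7379 and 755 after 42 °C and 19746 and 17635 after 44 °C, and its part in these differences was not tested.

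Cytokine genes of the NF-kB lists were among those that rose after 42 °C. TNF rose from 50.5 to 389 and IL1A from 424 to 3968 in the 6 h after 42 °C. There 7 of 14 measured NF-kB chemokines and cytokines rose, against 4.37% of all measured genes. None of 15 rose after 44 °C, where 0.274% of all measured genes rose, so this count is near the share of all genes. At 0 h TNF and IL1A were already higher after 44 °C as deposited, at 416 and 3126. HYLS1, a centriole protein gene (98.9 and 997 after 42 °C), and CSTF1, a factor of mRNA cleavage (130 and 765), differed by -0.94 and -0.98 log2 units after 44 °C and quantile normalization. Of 543 genes that rose after 42 °C, 2 rose after 44 °C (0.368%, against 0.274% of all genes). A further 16 fell after 44 °C, where 1.48% of all genes fell, and 414 stayed within 2-fold. TADA1, a subunit of the SAGA coactivator, had the largest difference between the temperatures among the 16. It rose 8.30-fold after 42 °C (61.0 and 507) and fell 3.89-fold after 44 °C (299 and 77.0), or 6.24-fold and 2.63-fold after quantile normalization.

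**Figure D5:**
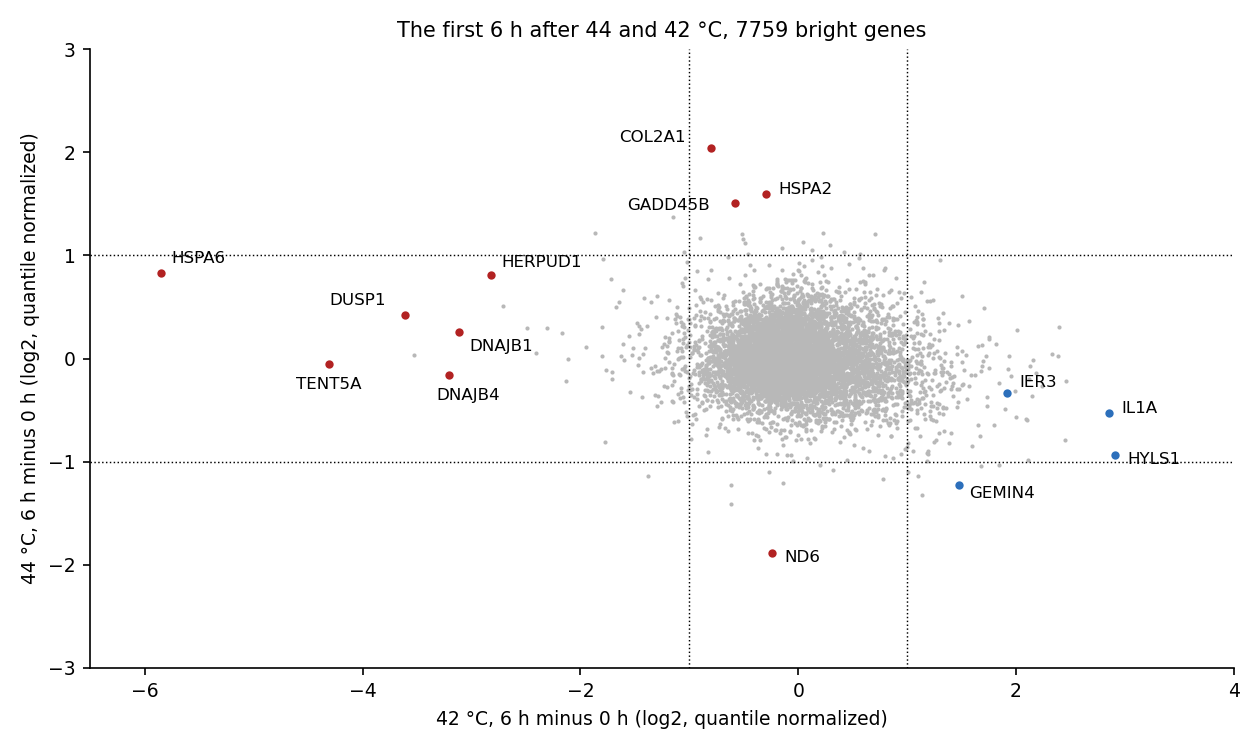
Quantile-normalized log2 difference between 6 h and 0 h of 7759 genes bright on all 4 arrays, after 42 °C (horizontal axis) and after 44 °C (vertical axis), with dotted lines at 2-fold. The cloud is wider along the 42 °C axis (standard deviation 0.50) than along the 44 °C axis (0.29), and HSPA6, DNAJB1, DNAJB4, DUSP1 and TENT5A lie far to the left and within 2-fold on the 44 °C axis, HSPA6 highest at 0.83. Named genes are red where lower and blue where higher after 42 °C.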

How the data were processed

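The deposited values are probe set intensities on a linear scale, 1 column per array for 54675 probe sets, with the authors' algorithm not given in the sources used here. Per the labels' protocols, each labelling reaction took 5 µg of total RNA. All 7 columns belong to the study, with 0 columns from other samples, and the remaining arrays served the floor, the 42 °C comparison and values at 12 h.

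Of the probe sets, 41097 listed 1 gene, 1801 several and 11777 none, and only the first kind was named. Names come from the platform annotation, matched for 41037 of 41091 single-gene probe sets to a RefSeq gene table of GRCh38.p14 for the current symbol. Each gene was taken from its probe set with the highest mean over the arrays, which gave 19775 genes, 13880 of them measured on either 44 °C array. Differences are log2 of the floored intensity at 6 h minus 0 h, as deposited, after quantile normalization of the 2 arrays and after a median shift over 25138 probe sets above the floor. The calculation was tested on simulated data and run in Python 3.11.15 with numpy 2.4.6, pandas 2.3.3 and matplotlib 3.10.9.

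Genes were named by rule: the 20 largest rises and falls among bright genes whose other probe sets agree in sign as deposited, up to 4 changed members of each list, 45 fixed genes (44 with a value), up to 3 held members of each heat shock or early gene list, and the 8 largest differences each way from 42 °C of at least 2 log2 units. This gave 115 genes. Any further gene in the text was picked with its values already known. The members, lists and fixed genes were chosen with earlier results of these data known. Alternatives were other scalings, including the control transcripts, other floors, the mean of probe sets and a 3-fold threshold.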

Additional observations from a re-analysis of the deposited data

Results flagged for a closer look

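Among the 20 genes that passed 2-fold in opposite directions in the 6 h after 44 °C and after 42 °C, 9 are among those named by rule. The differences between the temperatures were not tested, since each condition has 1 array. They are given as the log2 difference (6 h minus 0 h) after 44 °C less that after 42 °C, as deposited and then after quantile normalization, since the medians of all genes lie on opposite sides of 0 as deposited.

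HSPA1L, an HSP70, differed by 5.11 and 5.98, and the call rests on 1 probe set, since its other probe set read 769 and 189 at 0 and 6 h after 44 °C, and 30.1 and below the floor after 42 °C. CACNA1G, a calcium channel gene, differed by at least 3.86 and 4.66, since it went from 103.6 to below the floor after 42 °C. ID2 differed by 2.78 and 3.54, with 121 and 50.1 after 42 °C against 1054 and 2996 after 44 °C. TENT5C, a poly(A) polymerase, differed by 2.74 and 3.61.

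The opposite pattern, lower after 44 °C and higher after 42 °C, was largest in TADA1 at -5.01 and -4.04. UBOX5, a ubiquitin ligase gene, stood at -4.36 and -3.35, and SNAPC4, a subunit of the complex that starts small nuclear RNA transcription, at -4.35 and -3.22. The zinc finger gene ZNF135 was at -3.48 and -2.75 and lay below the floor at 6 h after 44 °C and at 0 h after 42 °C, so its values are lower bounds in size. POLR1C was at -3.11 and -2.11, and its other probe set moved the same way, from 217 to 88.2 after 44 °C and from 119 to 271 after 42 °C.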

How the results depend on the processing

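Counts of changed genes moved with the scaling and the floor, while the count of held genes (7927) changed by less than 1.5 times under every alternative run. After 44 °C the deposited scale alone gave 1378 lower genes. Higher genes numbered 237 with quantile normalization of the 2 arrays, 182 with that of all 7 arrays, 145 with the median shift and 231 with the poly-A controls. The hybridisation controls gave 24 higher and 2586 lower. A floor at 2 times the pooled median gave 13 and 71, a floor of 1 intensity unit 1170 and 2018, a 3-fold threshold 2 and 26, and bright genes alone 13 and 93.

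After 42 °C the deposited scale alone gave 1499 higher genes, and lower genes numbered 404 with either quantile normalization and 486 with the median shift. The hybridisation controls gave 1380 higher genes, and the poly-A controls 246 higher and 1171 lower. The higher floor gave 81 lower genes, the floor of 1 unit 2377 higher and 2219 lower, the 3-fold threshold 127 and 40, and bright genes alone 81 lower.

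With the mean of probe sets HSPA1L reversed to -0.49, the single reversal among 115 named genes. Of 49 named genes that rose or fell, 36 kept their call under every alternative scaling and floor and with the mean of probe sets. The 3-fold threshold was applied to the counts and not to single named genes. The poly-A scaling, the alternatives for the held and 42 °C counts and the CArG box were added after seeing the data. No paired analysis was possible because each condition has 1 array, and for the same reason no replicate could be left out. Dim genes are limited by signal over background: 128 of the 206 fallen genes lay below the floor at 6 h.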
